A study of Mus musculus with 30 samples.

Results

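ATF4 is a basic leucine zipper transcription factor at the centre of the response to amino acid shortage and other stresses. Kinases that sense these stresses phosphorylate the translation factor eIF2alpha, which lowers protein synthesis in general while the Atf4 mRNA is translated more. ATF4, often paired with C/EBP proteins, then switches on genes that make, import and charge amino acids, together with stress regulators such as Ddit3 (CHOP), Trib3 and Chac1. The set described here holds 45 such genes among the 20286 gene symbols of the RNA tables. They were chosen by symbol, as known ATF4 targets, amino acid synthesis and transport genes and tRNA synthetases, with the RNA difference between the genotypes already known. Their differences are therefore given as a description, without a test.

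The RNA came from mouse embryonic stem (ES) cells of the strain C57BL/6-ICR. One group carried floxed alleles of the DNA glycosylase gene Tdg (Tdg fl/fl), and in the other Tdg was deleted (Tdg -/-). Thymine DNA glycosylase removes 5-formylcytosine and 5-carboxylcytosine from DNA. PolyA RNA of 2 libraries for each genotype was sequenced, and the authors deposited 1 value per gene and genotype in FPKM (fragments scaled to transcript length and to the number of mapped fragments). No spread between replicates can be had from these values, no read numbers are given, and the depth behind each value is unknown. The culture medium of the cells used for RNA, the number of clones and the way Tdg was deleted are not given in the sources used here. In such bulk RNA, fewer cells that express a gene and less of its RNA per cell cannot be told apart.

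The level of Tdg itself was 22.1 FPKM in floxed and 9.48 FPKM in deleted cells, which is 42.9% of the former. Its RNA was thus lower but not absent in the cells labelled Tdg -/-, and the sources used here do not say which exons were removed, so this value alone does not check the label. All 7 ES markers were at 67.4 FPKM or more in both genotypes, with 4 higher and 3 lower in Tdg -/- cells and log2 changes from -0.05 (Zfp42) to 0.24 (Sox2, at 196 and 232 FPKM). The 7 fibroblast and feeder markers summed to 2.90 and 2.15 FPKM, mostly Thy1 (2.36 and 1.72 FPKM), and the other 6 to 0.539 and 0.428 FPKM, with Lum listed at 0. The 7 primitive endoderm markers summed to 2.05 and 1.85 FPKM, mostly Gata4 (1.27 and 1.31 FPKM), and each of the other 6 was under 1 FPKM.

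ATF4 and C/EBP proteins bind as pairs to a composite element, the C/EBP-ATF response element (CARE), with the core TGATGCAA, or TTGCATCA when read on the other strand. Promoter sequences from RefSeq (GRCm38.p6, 250 bases before to 50 after a start site) were matched for 37 of the 45 genes. Those without a match were Cth, Slc7a3, Slc7a5, Slc1a5, Wars, Cars, Nars and Lars. On either strand, the core was in the promoters of 11 of these 37 genes (29.7%), against 279 of all 27025 genes of the promoter table (1.03%) and 73 of the 9475 genes that had both a promoter and a measured level (0.770%). With any base at the sixth letter (TGATGNAA, which includes the core), 15 of the 37 (40.5%) had a match. The share was 4.51% of all genes and 2.77% of the 9475. The cyclic AMP response element TGACGTCA, searched in the same way, was in 0 of the 37. It was in 2.03% of all genes and 3.74% of the 9475. At shares this low, 0 of 37 says little about the members. The genes were listed as known ATF4 targets, so this share describes the list, and a match is a run of letters, not a shown binding site.

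The following stretches, 5′ to 3′ on the strand of the gene, show the element in members whose levels differed to very different degrees between the genotypes. Capitals mark TGATGNAA or its reverse complement. In order they lie at chr2:119351023-119351082 (+), chr19:27216794-27216853 (+), chr1:191183410-191183469 (-), chr6:7693210-7693258 (-), chr14:55540137-55540196 (+), chr11:120643818-120643877 (-), chr7:126625547-126625606 (-), chr8:111033704-111033763 (+) and chr3:50443627-50443705 (-), all upstream of a RefSeq start site.
Chac1: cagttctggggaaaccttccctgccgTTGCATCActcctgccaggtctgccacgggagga
Vldlr: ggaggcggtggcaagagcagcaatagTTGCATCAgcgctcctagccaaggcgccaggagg
Atf3: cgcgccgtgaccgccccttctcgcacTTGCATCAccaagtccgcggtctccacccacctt
Asns: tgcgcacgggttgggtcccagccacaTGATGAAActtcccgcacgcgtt
Pck2: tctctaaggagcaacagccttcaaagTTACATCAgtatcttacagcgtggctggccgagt
Pycr1: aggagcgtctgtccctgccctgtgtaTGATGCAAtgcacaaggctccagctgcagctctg
Nupr1: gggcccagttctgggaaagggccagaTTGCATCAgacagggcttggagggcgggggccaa
Aars: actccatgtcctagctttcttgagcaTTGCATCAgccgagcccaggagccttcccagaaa
Slc7a11: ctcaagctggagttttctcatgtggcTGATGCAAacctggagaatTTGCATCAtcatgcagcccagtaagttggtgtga

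The Chac1 core began 193 bases before the start, that of Vldlr 200 bases, and those of Atf3 and Nupr1 110 bases each. Slc7a11 was the only one of the 37 genes with the core at 2 places, 66 and 47 bases before the start. Asns and Pck2 had only the looser form, at 23 and 103 bases before it, as did Gars (30 bases before) and Trib3 (just after the start). Yars and Iars had the core just after the start and Slc1a4 across it, and Tars had it 15 bases before.

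The comparison asked which genes differed in RNA level between the genotypes. Changes are log2((Tdg -/- FPKM + 1)/(fl/fl FPKM + 1)), a scale that understates differences of genes at low levels, and genes with at least 1 FPKM in either genotype were measured. All 45 genes passed this minimum in both genotypes, and 44 of them were higher in Tdg -/- cells, against 45.1% of the 12053 measured genes. Their median log2 change was 0.34, and that of all measured genes was -0.02. A log2 change of at least 0.5 was reached by 14 of the 45 upward, where 1.82% of all measured genes reached it, and by 0 downward, where 1.63% did. A change of at least 1 was reached by 2 upward, against 0.183% of all measured genes, and by 0 downward, against 0.174%. The set was put together with these changes known, so the counts describe it and are not evidence for it. Of the 100 highest changes among all measured genes, 7 belonged to the set, which was chosen with these changes known. The set held 45 of the 12053 measured genes. The summed FPKM of the 45 genes went from 3406 to 4533, or from 0.763% to 1.06% of the FPKM of all genes. Within these sums, Asns alone went from 471 to 873 FPKM.

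**Figure D1:**
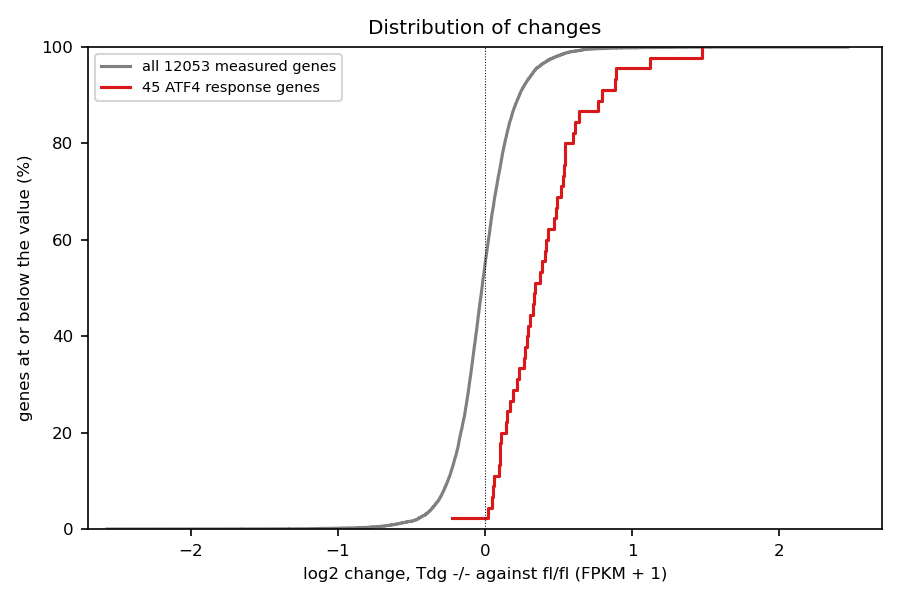
Cumulative share of genes (y axis, percent) at or below each log2 change between Tdg -/- and fl/fl cells (x axis), for all 12053 measured genes in grey and the 45 ATF4 response genes in red. The red curve lies to the right of the grey one, with 44 of 45 genes above 0 and 2 genes above 1.

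The transcription factors of the set were all higher in Tdg -/- cells, with a median log2 change of 0.53 over 7 genes, although Atf4 itself differed little. Atf4 mRNA was at 195 FPKM in the floxed and 208 FPKM in the deleted cells, a log2 change of 0.10. Atf5, a related factor whose mRNA is also translated under stress, was at 8.68 and 20.1 FPKM, a log2 change of 1.12 and the 14th highest of all measured genes. Atf3, a repressor induced by many stresses, was at 2.99 and 4.82 FPKM (0.55). Ddit3 encodes CHOP, which promotes cell death under lasting stress, and was at 7.21 and 10.9 FPKM (0.53). Cebpb, at 1.91 and 3.24 FPKM (0.54), and Cebpg, at 7.55 and 9.55 FPKM (0.30), encode C/EBP partners of ATF4. Nupr1, a small stress-induced chromatin protein, was at 50.4 and 66.3 FPKM (0.39). Atf4 thus had the highest level of the factors and the smallest change, and the other factors except Nupr1 were between 1.91 and 20.1 FPKM in either genotype.

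The feedback and stress effectors had a median of 0.53 over 6 genes, all above 0. Chac1 breaks down glutathione inside the cell and had the highest change of the 45 genes. It was at 8.06 FPKM in floxed and 24.2 FPKM in deleted cells, 3.00 times the level and a log2 change of 1.48, the 4th highest of all measured genes. Vldlr, a lipoprotein receptor, followed at 1.63 and 3.48 FPKM (0.77), a value near the minimum. Trib3, a pseudokinase that restrains ATF4 and AKT, was at 15.6 and 24.1 FPKM (0.60). Ddit4, an inhibitor of mTORC1 also known as REDD1, was at 18.0 and 25.4 FPKM (0.47). Sesn2, which holds back mTORC1 when leucine is scarce, was at 36.7 and 44.3 FPKM (0.27), and Stc2, a secreted stanniocalcin, at 5.11 and 5.75 FPKM (0.14). The order within this group thus ran from 3.00-fold for Chac1 to 1.12-fold for Stc2 on the FPKM scale.

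All 11 genes of amino acid and one-carbon synthesis were higher in Tdg -/- cells, with a median of 0.43. Asns, asparagine synthetase, had the highest level of the 45 genes in both genotypes. It was at 471 FPKM in floxed and 873 FPKM in Tdg -/- cells, 1.85 times the level and a log2 change of 0.89. Gpt2, the mitochondrial alanine aminotransferase, was at 44.1 and 82.2 FPKM (0.88), and Pck2, which makes phosphoenolpyruvate in mitochondria, at 43.4 and 76.1 FPKM (0.80). These 3 ranked 27th, 28th and 39th among all measured genes. Cth, which makes cysteine from cystathionine, was at 113 and 173 FPKM (0.61).

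The enzymes of serine synthesis followed closely on each other. Phgdh, the first enzyme of the route from glycolysis to serine, was at 84.0 FPKM in floxed and 111.7 FPKM in Tdg -/- cells (0.41). Psat1, the second, was at 145 and 177 FPKM (0.29), and Psph, the last, at 29.1 and 39.4 FPKM (0.43). The mitochondrial folate enzymes downstream differed less, with Shmt2 at 104 and 126 FPKM (0.28) and Mthfd2 at 69.7 and 79.7 FPKM (0.19). Of the proline enzymes, Aldh18a1 was at 46.8 and 59.4 FPKM (0.34) and Pycr1 at 11.4 and 16.4 FPKM (0.48). The 4 genes of this group past 0.5 were thus Asns, Gpt2, Pck2 and Cth, none of them a serine or proline enzyme.

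**Figure D2:**
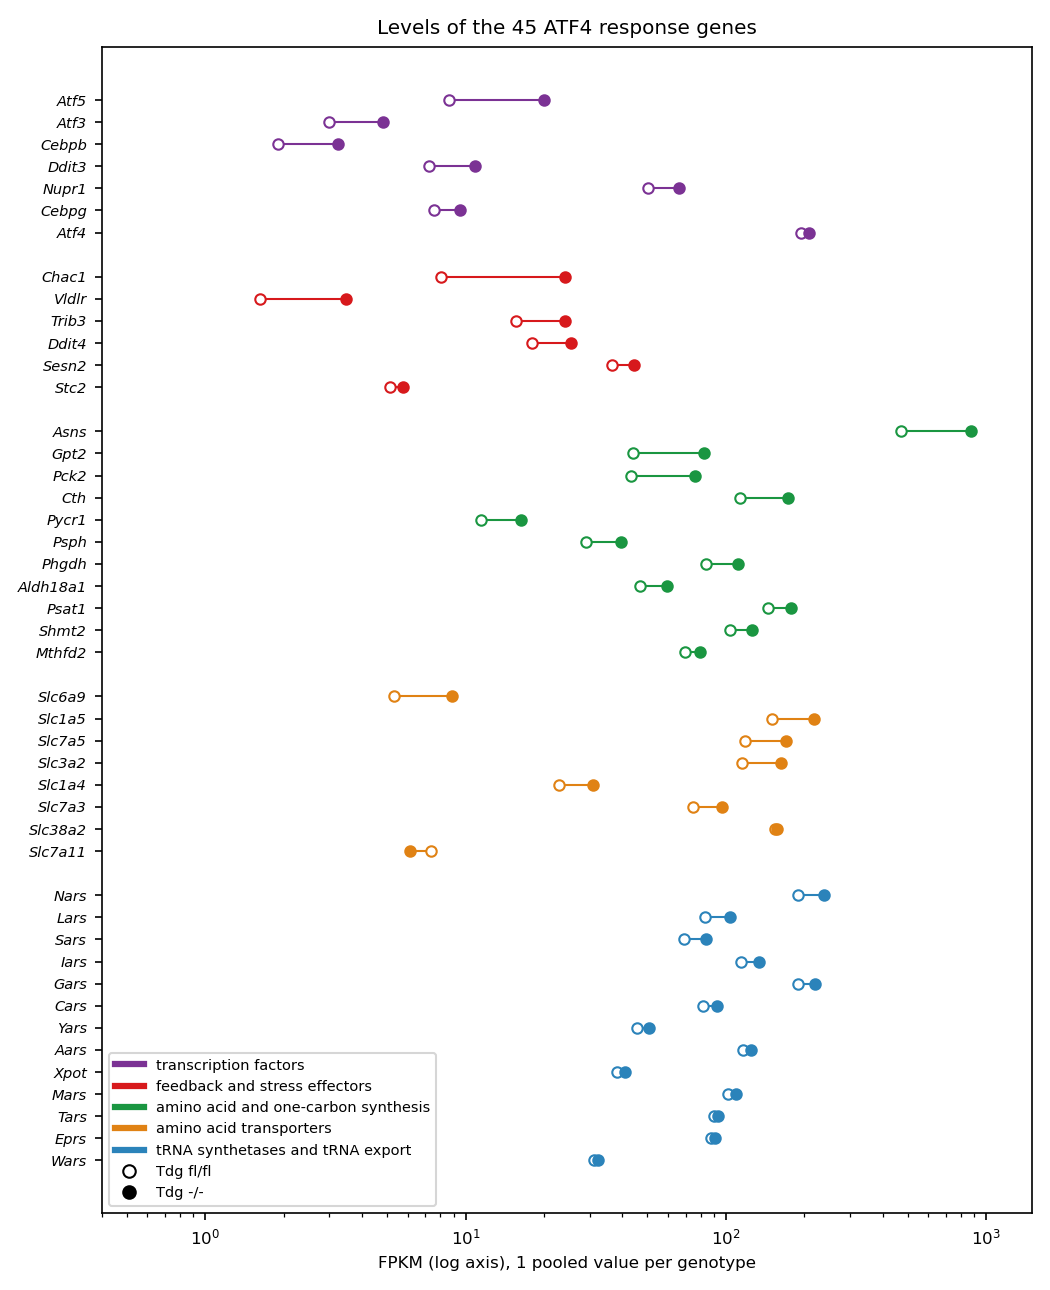
FPKM in fl/fl (open circles) and Tdg -/- cells (filled circles) of each of the 45 genes on a log axis, 1 pooled value per genotype, coloured by role and ordered by change within it. Asns is the highest in both genotypes, at 471 and 873 FPKM, and Slc7a11 is the only gene whose filled circle lies to the left.

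Among the amino acid transporters 7 of 8 were higher, with a median of 0.45, and Slc7a11 was the only one of the 45 genes that was lower. Slc7a11 imports cystine in exchange for glutamate and was at 7.35 FPKM in floxed and 6.14 FPKM in Tdg -/- cells, a log2 change of -0.23. Its heavy chain partner Slc3a2 was higher, at 116 and 163 FPKM (0.49). Slc7a5, which pairs with Slc3a2 as the large neutral amino acid transporter LAT1, was at 119 and 171 FPKM (0.52). The Slc7a5 level was 1.03 times that of Slc3a2 in fl/fl and 1.05 times in Tdg -/- cells, so these partners kept nearly equal levels. Slc7a5 and Slc3a2 also lie just inside and just outside the change of 0.5 used for the counts.

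The glutamine transporter Slc1a5 (ASCT2) was at 150.2 and 219 FPKM (0.54), and its relative Slc1a4 (ASCT1), which carries small neutral amino acids, at 23.0 and 30.9 FPKM (0.41). Slc6a9, the glycine transporter GLYT1, was at 5.30 and 8.84 FPKM (0.64), the highest change of the transporters. Slc7a3, a cationic amino acid transporter, was at 74.6 and 96.9 FPKM (0.37). Slc38a2 (SNAT2), a well known target of amino acid limitation, was at 154 and 157 FPKM (0.02) and so was nearly equal in both genotypes. The set thus held 2 transporters, Slc38a2 and Slc7a11, that stood apart from the other 6, whose changes lay between 0.37 and 0.64.

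The 12 tRNA synthetases of the set and Xpot, which exports tRNAs from the nucleus, were all above 0 but by less than the other roles, with a median of 0.15 and none past 0.5. These enzymes join amino acids to their tRNAs. The highest were Nars, for asparagine, at 189 and 238 FPKM (0.33), Lars, for leucine, at 82.9 and 104 FPKM (0.32), and Sars, for serine, at 69.3 and 83.9 FPKM (0.27). Iars was at 114 and 134 FPKM (0.23) and Gars at 190 and 220 FPKM (0.21). Cars (0.17), Yars (0.15), Aars (0.11), Xpot (0.10), Mars (0.10), Tars (0.06), Eprs (0.06) and Wars (0.05) followed. The lowest of them, Wars, was at 31.2 and 32.2 FPKM, the lowest levels of this group. The median of these 13 genes lay below those of the transport and synthesis groups, 0.45 and 0.43.

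The cytosolic synthetases outside the set had a lower median, and the values of both groups overlapped. Of these 8 genes, 2 were above 0 and 6 below, with a median of -0.10. Vars (0.09) and Farsb (0.09) were the highest, above Tars, Eprs and Wars of the set, and Rars (-0.27, from 58.2 to 48.2 FPKM) and Kars (-0.20, from 108 to 93.8 FPKM) the lowest. Kars, Hars, Qars, Dars and Farsa lay between -0.20 and -0.02. The 25 measured genes nearest to Rars had a median change of -0.25, close to its own. Of the 17 mitochondrial synthetases 9 were above 0, with a median of 0.01, led by Lars2 (0.47, from 174 to 241 FPKM) and Vars2 (0.27), with Sars2 (-0.11) and Wars2 (-0.09) as the lowest. The set and these lists were chosen with earlier results of these data known, so the contrast describes that choice. The difference between the synthetases of the set and the others was not tested.

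The genes of eIF2 and its regulators differed little in RNA. Of 16 genes of eIF2, its kinases, exchange factor and phosphatase, 6 were above 0 and none passed 0.5 in either direction, with a median of -0.07. Gcn1l1, an activator of the amino acid sensing kinase GCN2, was the highest (0.17), followed by Ppp1r15b (0.09). Ppp1r15a was at 14.0 and 14.5 FPKM (0.05). The lowest were Eif2b2 (-0.28), a subunit of the exchange factor that eIF2alpha phosphorylation inhibits, and the kinase gene Eif2ak1 (-0.25). Eif2ak4, which encodes GCN2, was at 11.3 and 11.6 FPKM (0.03), and Eif2ak3, which encodes the endoplasmic reticulum kinase PERK, at 10.3 and 8.92 FPKM (-0.18). RNA levels do not show how far these kinases were active.

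Most endoplasmic reticulum stress genes lay below 0. This list holds chaperones and degradation factors controlled by ATF6 and by XBP1, the factor that the sensor IRE1 activates, together with Atf6 and Xbp1 themselves. Of its 19 measured genes 16 were below 0, where 6619 of all 12053 measured genes were. The median was -0.15, and 1 passed 0.5 upward and 1 downward, against 1.82% and 1.63% of all measured genes. Several of these genes were at high levels. Among all genes with at least 40 FPKM in either genotype, 32.4% were above 0, with a median of -0.07. The share of this list's changes that goes with level was not tested. P4hb, a protein disulfide isomerase, was the lowest (-1.12, from 509.8 to 234 FPKM), and its 25 nearest measured genes on chromosome 11 had a median of -0.65. The chaperone genes Calr (-0.36, from 462 to 361 FPKM) and Hspa5 (-0.35, from 329 to 257 FPKM) lay away from that region, with neighbour medians of -0.08 and 0.03. Herpud1, which helps degrade misfolded proteins, was the highest at 0.51, from 14.3 to 20.8 FPKM, and Atf6 was at 0.15.

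**Figure D3:**
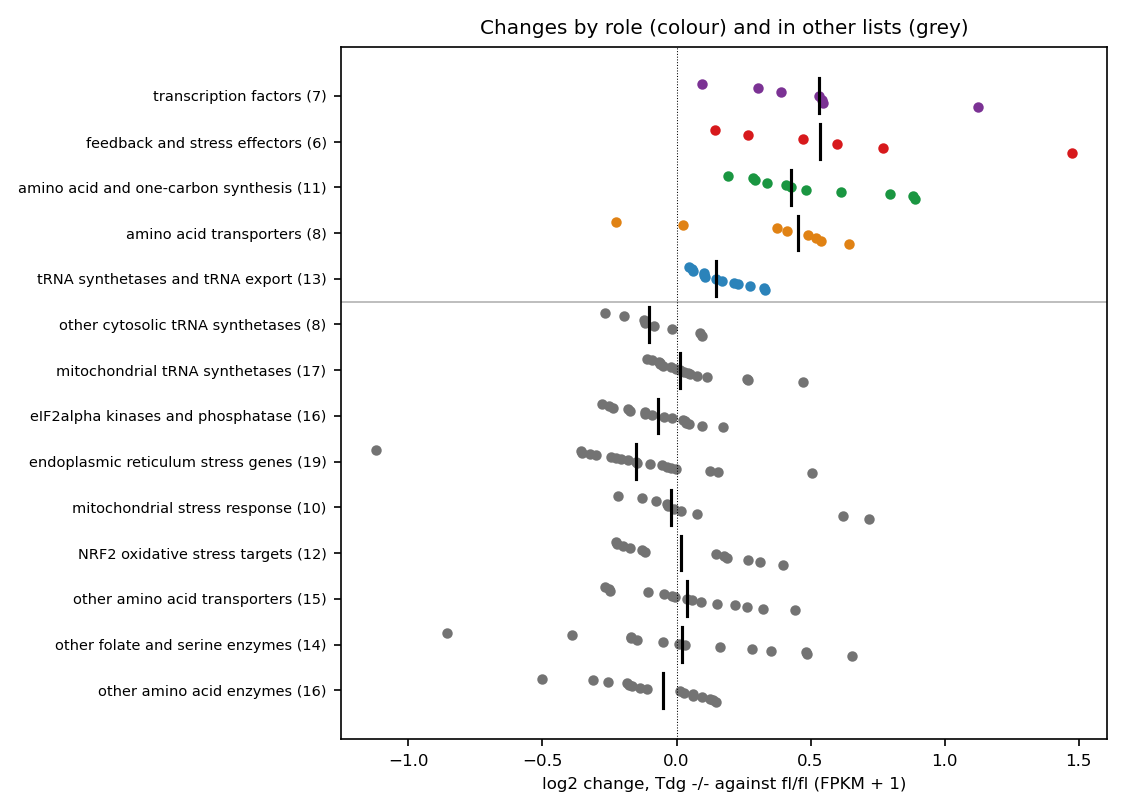
Log2 change between Tdg -/- and fl/fl cells (x axis) of each gene, by role in the set (colour, above the line) and in 9 other lists (grey), with the number of measured genes in brackets and a bar at each median. The 5 medians of the set lie between 0.15 and 0.53, and those of the other lists between -0.15 and 0.04. The set and the lists were chosen with earlier results of these data known.

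Further lists of neighbouring metabolism had medians near that of all genes, with a few members among the higher changes. In the mitochondrial stress list, 4 of 10 genes were above 0 (median -0.02), and Gdf15 (0.72, from 5.05 to 8.95 FPKM) and Fgf21 (0.62, from 0.304 to 1.00 FPKM), hormones that are known ATF4 targets, were the highest. Fgf21 passed the minimum of 1 FPKM through Tdg -/- cells alone, so its direction was fixed by that minimum. Clpp (-0.22) and Hspe1 (-0.13) were the lowest. Of 14 other folate and serine enzymes 8 were above 0 (median 0.02), with Aldh1l2 (0.66, from 1.83 to 3.46 FPKM), a mitochondrial folate dehydrogenase, and the glycine decarboxylase gene Gldc (0.49) at the top. The lowest of these were Mtr (-0.86, from 19.3 to 10.2 FPKM), methionine synthase, and Shmt1 (-0.39), the cytosolic counterpart of Shmt2. The neighbours of Shmt1, also on chromosome 11, had a median of -0.21.

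Other amino acid transporters had a median of 0.04, with 8 of 15 above 0. The highest were Slc7a1, a cationic amino acid transporter (0.44, from 42.6 to 58.2 FPKM), and Slc38a7 (0.32), and the lowest Slc38a10 (-0.26) and Slc7a8 (-0.25). The 25 measured genes nearest to Slc38a10, on chromosome 11, had a median of -0.23, close to its own value. Other amino acid enzymes had a median of -0.05, with 8 of 16 above 0. Glud1, glutamate dehydrogenase, was the highest (0.15), and the ornithine aminotransferase gene Oat the lowest (-0.50, from 44.96 to 31.5 FPKM). Of 12 measured targets of NRF2, a factor of oxidative stress that also controls Slc7a11, 6 were above 0 (median 0.02), with Srxn1 (0.40) and Nqo1 (0.31) as the highest and Slc7a11 (-0.23) and Prdx1 (-0.22) as the lowest.

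The set is spread over 17 chromosomes, and some regions of the genome differed between the genotypes as a whole. The measured genes of chromosome 11 had a median change of -0.21, where the medians of the other autosomes and X lay between -0.03 and 0.004. For each of the 45 genes the 25 measured genes nearest in gene order were therefore set beside it. For 41 of them the neighbours had a median within 0.1 of 0. Of the 45 genes, 43 were above their neighbours, where 5995 of the 11976 measured genes with a chromosome were. The exceptions among the 45 were Slc7a11, with -0.23 against a neighbour median of -0.03, and Slc38a2, with 0.02 against 0.06.

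Asns, near the start of chromosome 6, was the gene with the highest neighbour median, 0.42. Its own change was 0.89, so that 0.47 remained after subtraction. Pycr1 on chromosome 11 had the lowest, -0.75, and was at 0.48 itself, or 1.23 above its neighbours. Slc1a4 and Stc2, also on chromosome 11, had neighbour medians of -0.19 and -0.24 and lay 0.60 and 0.39 above them. Chac1 and Atf5 hardly moved, at 1.44 and 1.16 above their neighbours. After subtraction, 17 of the 45 genes were at or above 0.5, where 225 of the 11976 measured genes with a chromosome were. Asns was no longer among the 17. The part of these regional differences in the values of Asns and Pycr1 was not tested.

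**Figure D4:**
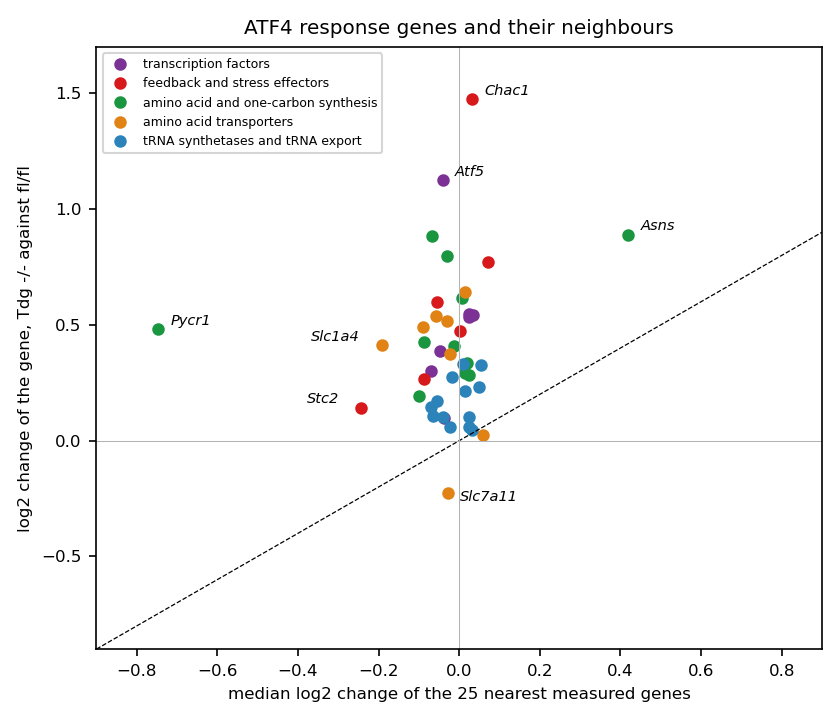
Log2 change of each of the 45 genes (y axis) against the median change of its 25 nearest measured genes (x axis), coloured by role, with a dashed line of equal values. Asns lies far to the right, at a neighbour median of 0.42, and Pycr1 far to the left, at -0.75. Above the line lie 43 of the 45 genes, and 5995 of the 11976 measured genes with a chromosome, not drawn, were above their neighbours.

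Across the 45 genes, which share the same libraries and are not replicates, Spearman's rho between mean level and change was -0.23. The genes of the set were more abundant than most, with a median of 50.4 FPKM in fl/fl cells against 11.6 FPKM for all measured genes. At such levels the typical change was slightly negative. Among the 2050 genes with at least 40 FPKM in either genotype, a minimum chosen after seeing the data, the median was -0.07 and 32.4% were above 0. Of the 45 genes, 29 reached this level, and each of the 29 was above 0, with a median of 0.28. For 2 of them, Sesn2 and Xpot, this sign was fixed by the minimum, since they reached 40 FPKM in Tdg -/- cells alone; the other 27 reached it in both genotypes.

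Members with and without the motif overlapped in their changes. The 11 genes with the core TGATGCAA had a median change of 0.39, from -0.23 in Slc7a11 to 1.48 in Chac1, and 3 of them passed 0.5. The 26 with a promoter but without the core had a median of 0.32, from 0.02 in Slc38a2 to 1.12 in Atf5, and 8 of them passed 0.5. With the looser form, which adds Asns, Pck2, Trib3 and Gars, the order of these shares turned: 6 of 15 genes with it and 5 of 22 without it passed 0.5, with medians of 0.41 and 0.30. The sequences shown above thus include Chac1, with the highest change of the set, Aars at 0.11, and Slc7a11, with the core at 2 places and the lowest change. These comparisons have no test, and the window of 300 bases leaves out elements further away.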

How the data were processed

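PolyA RNA-Seq of 2 Tdg fl/fl and 2 Tdg -/- libraries (single reads of 51 bp, per the labels' protocols) was available as deposited FPKM values, 1 per row and genotype, made by the authors. The submitters' processing notes list TopHat 1.4.1 and Cufflinks 1.3.0 without their roles. Not given in the sources used here are the annotation, the treatment of near-identical gene copies and the pooling of replicates. Altogether 20437 rows held 20286 symbols; repeated symbols were summed, and each of the 45 genes had a single row. Log2 changes used a pseudocount of 1 FPKM and a minimum of 1 FPKM in either genotype, with no p-value. Named were the members differing by at least 0.3, the highest and lowest of each role, the 2 highest and 2 lowest of each other list, and Tdg; all other genes were named after their values were seen. The values of 2 genes within this rule are not reported here. The members and lists were chosen with earlier results of these data known. RefSeq (GRCm38.p6) placed 11976 of the 12053 measured genes and served only for gene order, chromosomes and promoter sequences. The 8 region lists, in mm9, were not used here, because no mm9 annotation was at hand. Pdia4 and Slc43a2 of the other lists were not analysed here. Calculations ran in Python 3.11.15 with pandas 2.3.3 and were tested on simulated data. Alternatives were another pseudocount, other minimums, quantile normalization, centring on all genes, chromosomes or neighbours, the highest row of each symbol, and leaving out chromosome 11.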

Additional observations from a re-analysis of the deposited data

How the results depend on the processing

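No paired analysis was possible because each genotype has 1 pooled value per gene, and for the same reason no replicate could be left out. Over all settings the median change of the 45 genes lay between 0.28 and 0.42. The single change of direction among them was that of Slc38a2, from 0.02 to -0.04 when the median of its 25 neighbours was subtracted. With a minimum of 5 FPKM the median of the transcription factors was 0.39, over 5 genes. After subtraction of the neighbours the median of the transporters was 0.57. With a minimum of 40 FPKM, chosen after seeing the data, 29 genes of the set were measured and 29 were above 0. For 2 of them, Sesn2 and Xpot, this sign was fixed, since the minimum admitted them through Tdg -/- cells alone. Of the 29 genes, 6 passed 0.5 and 0 passed 1. The 2 genes past 1 without this minimum, Chac1 and Atf5, were under 40 FPKM in both genotypes. Among all genes, 410 were at least 0.5 higher and 330 at least 0.5 lower with a pseudocount of 0.1, and 58 and 52 passed 1. With a minimum of 5 FPKM, 3622 genes were above 0, 118 were at least 0.5 higher, and 11 and 11 passed 1. With no minimum 8723 genes were above 0, and without chromosome 11 124 were at least 0.5 lower. With a minimum of 40 FPKM, 665 were above 0, 23 and 39 passed 0.5, and 1 and 3 passed 1. Depth is unknown, so the precision of low values such as those of Vldlr and Cebpb cannot be given.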

Other observations

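Genes outside the set that carry the core TGATGCAA in their promoter were examined after the values of the set were known. Of 62 such measured genes, 37 were above 0 (59.7%), against 44.4% of the 9376 other measured genes with a promoter but without the core. A change of at least 0.5 upward was reached by 6 of the 62 (9.68%) and by 1.397% of those without it, and the medians were 0.05 and -0.02. With the looser form TGATGNAA these contrasts were smaller, with 130 of 247 genes (52.6%) above 0, 10 (4.05%) at least 0.5 higher against 1.38% of those without it, and medians of 0.01 and -0.02. The 6 were Inhbe, a subunit of activin E (1.04, from 0.618 to 2.33 FPKM), Serpinb6c (0.71, from 13.6 to 22.8 FPKM), Fgf21 (0.62), the ankyrin gene Ank2 (0.56, from 1.23 to 2.28 FPKM), Serpinf1 (0.53, from 1.45 to 2.54 FPKM) and Herpud1 (0.51). Inhbe and Fgf21 passed the minimum of 1 FPKM through Tdg -/- cells alone, so that their direction was fixed by it, and the other 4 passed it in both genotypes. Lekr1 (from 0.969 to 1.53 FPKM), among the higher changes of the 37 genes above 0, also passed it through Tdg -/- cells alone. The remaining genes above 0 were not all checked for this. Genes that passed the minimum in 1 genotype alone were not counted apart in the shares above 0, which may hold more of them. Of the 62 genes, the only one at least 0.5 lower was Sh3bgrl (-0.54, from 13.9 to 9.27 FPKM). These genes are named after their values were seen, and the difference was not tested.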
